A study of Mus musculus with 63 samples.

Results

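The genes described here are 8 mouse genes by which neural progenitors are commonly recognised: Sox1, Sox3, Sox11, Sox21, Pax6, Nes, Msi1 and Fabp7. They were chosen by name, and each had its own row, keyed by an Entrez gene number, among the 24990 rows of every deposited table, so that all 8 were measured in all 63 libraries. The study dealt with the Meteor long non-coding RNA locus and the gene Eomes, and sequenced polyadenylated RNA of R1 cells, a mouse embryonic stem cell line, and of NPCs, the neural progenitor cells derived from that line. The libraries formed 21 groups of 3 in 2 series.

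In the genotype series the lines pKO1 and pKO2 carried a deletion of the Meteor promoter, the line pInv carried an inversion of that promoter, and the lines WT1 and WT2 were wild type. Each of these 5 lines was collected in 2i medium, in serum medium and as NPCs. In the perturbation series the lines KD1 and KD2 carried a CRISPR/dCas9 knockdown of Meteor and the line Ctrl carried the empty vector, each in serum medium and as NPCs. Both stem cell media contained 10 ng/ml LIF, a cytokine that maintains pluripotency. The 2i medium added 1 µM of the MEK inhibitor PD0325901 and 3 µM of the GSK3 inhibitor CHIR99021, and the serum medium added 15% serum. Feeder fibroblasts from mouse embryos supported the stem cells and were left behind when serum cells were passaged for NPC culture, and NPCs were collected after 4 days. Replicate 3 of the Ctrl NPCs carried no growth protocol, and the labels do not say whether a line is a single clone.

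The SoxB1 factors Sox1 and Sox3 are transcription factors that hold cells in a neural progenitor state, and Sox1 is among the earliest markers of neuroectoderm. Sox21 belongs to the SoxB2 group, which represses many targets of the SoxB1 factors, and Sox11 is a SoxC factor that acts in progenitors and in newly formed neurons. Pax6 encodes a paired-box and homeobox factor of the forebrain, eye and spinal cord, Nes the intermediate filament protein nestin, Msi1 an RNA-binding protein of neural stem cells, and Fabp7 a fatty-acid-binding protein of radial glia. Sox3 and Pax6 are not strictly neural, and Nes is also made by other cell types, so no single gene of the 8 defines the cell type.

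Depth was 7566629 to 18553323 counts a library with a median of 11882018, and levels are given as CPM, the count scaled to the library total. Of the 504 values of the 8 genes, 26 were 0. The Entrez numbers and chromosomes were 20664 on chromosome 8 for Sox1, 20675 on X for Sox3, 20666 on 12 for Sox11, 223227 on 14 for Sox21, 18508 on 2 for Pax6, 18008 on 3 for Nes, 17690 on 5 for Msi1 and 12140 on 10 for Fabp7. Counts at Platr11, the row read here as the transcript of the edited locus, averaged 0.082 to 0.095 CPM over the states in pKO, at most 0.239 CPM in pInv and 5.98 to 24.5 CPM in WT, and 1.73 and 2.08 CPM in KD serum cells and NPCs, against 17.5 and 15.0 CPM in Ctrl. Nothing in the labels says that replicates of a line came from separate cultures, so each p-value measures the spread between these libraries. In bulk RNA, fewer cells of a type and less RNA per cell cannot be told apart. Sox21 shared 713 exon bases, 18.8% of its own, with Gm4675 on the opposite strand, and Sox1 shared 86 bases, 1.8%, with Gm25239, and since the strand setting of the counting is not given, reads of these pairs may be mixed.

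The 250 bases before the annotated start of 5 of the genes are shown, because these genes took different courses between the culture states: Sox1 and Sox21 had lower levels in serum than in 2i, Sox11 and Nes higher, and Fabp7 had no count in 2i. The sequences are those of RefSeq on GRCm38.p6, 5′ to 3′ on the strand of the gene, at chr8:12395269-12395518 (plus strand), chr14:118237031-118237280 (minus), chr12:27342719-27342968 (minus), chr3:87970843-87971092 (plus) and chr10:57784673-57784922 (plus). Capitals mark the letters CCAAT or their reverse complement ATTGG.
Sox1: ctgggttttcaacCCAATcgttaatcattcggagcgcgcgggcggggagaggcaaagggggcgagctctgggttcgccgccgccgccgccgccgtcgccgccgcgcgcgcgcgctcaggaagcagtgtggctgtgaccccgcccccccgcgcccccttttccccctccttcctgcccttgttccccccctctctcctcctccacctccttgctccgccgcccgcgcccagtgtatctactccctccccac
Sox21: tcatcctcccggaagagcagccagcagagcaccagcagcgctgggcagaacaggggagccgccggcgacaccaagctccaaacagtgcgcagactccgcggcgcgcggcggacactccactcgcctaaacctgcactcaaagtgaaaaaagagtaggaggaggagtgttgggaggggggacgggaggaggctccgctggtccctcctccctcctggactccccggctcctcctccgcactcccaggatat
Sox11: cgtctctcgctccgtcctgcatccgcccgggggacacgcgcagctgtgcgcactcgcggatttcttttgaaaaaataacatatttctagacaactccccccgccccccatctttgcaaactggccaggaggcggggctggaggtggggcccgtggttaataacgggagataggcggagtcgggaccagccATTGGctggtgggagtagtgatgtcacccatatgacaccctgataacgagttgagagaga
Nes: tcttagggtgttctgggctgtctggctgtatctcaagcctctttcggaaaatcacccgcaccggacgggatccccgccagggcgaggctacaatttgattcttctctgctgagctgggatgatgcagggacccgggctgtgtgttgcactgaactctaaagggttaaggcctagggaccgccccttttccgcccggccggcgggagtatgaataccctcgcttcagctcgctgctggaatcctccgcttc
Fabp7: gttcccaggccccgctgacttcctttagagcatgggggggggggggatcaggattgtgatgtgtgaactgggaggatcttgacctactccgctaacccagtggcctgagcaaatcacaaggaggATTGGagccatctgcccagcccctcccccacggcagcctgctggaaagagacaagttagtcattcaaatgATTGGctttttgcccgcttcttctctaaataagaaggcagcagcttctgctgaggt
CCAAT or its complement was found at -237 from the start in Sox1, at -60 in Sox11 and at -126 and -56 in Fabp7, and not in the windows of Sox21 and Nes. Among all 32851 promoter windows of the same length, 33.85% held it. The 5 windows differed in their CpG number, the count of C followed by G: 29 in Sox1, more than in 93.2% of all windows, 17 in Sox21 and Sox11, 15 in Nes and 4 in Fabp7, against a median of 6 over all windows. Promoter entries were found for 6 of the 8 genes.

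In the wild-type lines, 3 courses were seen across 2i, serum and NPC cells. Sox1, Sox21 and Msi1 were at their lowest in serum. Sox3, Sox11, Pax6 and Fabp7 were higher in serum than in 2i and higher again in NPCs. Nes was higher in serum than in 2i, with no called difference between NPCs and serum cells. These are given with the lowest, median and highest of the 6 WT libraries in each state, and with log2 fold changes ± SE from edgeR's quasi-likelihood test, adjusted by Benjamini-Hochberg over 15682 genes and called under 0.05.

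Sox1 had 5.25, 5.98 and 9.30 CPM in 2i, 0.0827, 0.366 and 0.627 CPM in serum, and 58.2, 109 and 319.5 CPM in NPCs. The 3 states did not overlap in any library, and Sox1 RNA in serum was at the edge of detection, with 25 counts over 6 libraries. The log2 fold change was -4.18 ± 0.49 for serum against 2i (edgeR adjusted p = 5.0e-09) and 8.46 ± 0.46 for NPCs against serum (edgeR adjusted p = 2.0e-17).

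Sox21 followed the same order with a smaller amplitude. It had 11.4, 16.7 and 29.5 CPM in 2i, 2.05, 2.60 and 3.94 CPM in serum, and 14.1, 23.4 and 60.3 CPM in NPCs. The serum libraries lay below all others, while 2i and NPC libraries overlapped. It was lower by 2.69 ± 0.34 (log2) in serum than in 2i and higher by 3.29 ± 0.34 in NPCs than in serum (edgeR adjusted p = 2.5e-08 and 3.1e-10). Msi1 had 23.0, 30.0 and 53.0 CPM in 2i, 7.70, 9.24 and 11.7 CPM in serum, and 13.3, 22.1 and 62.0 CPM in NPCs. Here too the serum libraries were the lowest and the other 2 states overlapped, with log2 fold changes of -1.84 ± 0.30 for serum against 2i and 1.50 ± 0.30 for NPCs against serum (edgeR adjusted p = 2.9e-06 and 4.4e-05).

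Sox11 rose at both steps. Its lowest, median and highest WT values were 1.33, 2.69 and 4.58 CPM in 2i, 16.8, 21.1 and 33.5 CPM in serum, and 96.3, 121 and 167 CPM in NPCs. No state overlapped another, and the log2 fold changes were 3.21 ± 0.21 for serum against 2i and 2.34 ± 0.17 for NPCs against serum (edgeR adjusted p = 1.7e-15 and 8.0e-14). Pax6 had 0.157, 0.719 and 1.36 CPM in 2i, 1.35, 3.89 and 9.79 CPM in serum, and 18.1, 28.8 and 51.2 CPM in NPCs. All NPC libraries stood above the others, the lowest serum library met the highest 2i library, and the changes were 2.79 ± 0.36 and 2.60 ± 0.28 (log2; edgeR adjusted p = 3.9e-08 and 5.6e-10).

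Sox3 had 5.22, 11.0 and 20.9 CPM in 2i, 12.4, 15.1 and 20.4 CPM in serum, and 42.2, 55.6 and 98.5 CPM in NPCs. The NPC libraries were apart from the rest and the 2i and serum libraries overlapped. Sox3 was higher by 1.87 ± 0.19 (log2) in NPCs than in serum (edgeR adjusted p = 1.5e-10). The step between serum and 2i was 0.57 ± 0.19 (edgeR adjusted p = 0.012), and with all libraries numbered 1 left out, an alternative chosen after seeing the data, it was 0.40 with an edgeR adjusted p of 0.072.

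Nes had 5.64, 8.70 and 15.9 CPM in 2i, 15.3, 27.8 and 38.4 CPM in serum, and 19.4, 37.1 and 49.1 CPM in NPCs, with neighbouring states overlapping. It was higher by 1.54 ± 0.20 (log2) in serum than in 2i (edgeR adjusted p = 2.4e-08). The difference between NPCs and serum, 0.31 ± 0.19, missed the threshold (edgeR adjusted p = 0.135) and passed it without replicate 3 of the WT2 NPCs, at 0.42 (edgeR adjusted p = 0.0485).

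Fabp7 had no count in any of the 15 genotype libraries in 2i. In the 6 WT libraries it had 0 of 68965684 counts in 2i, 18 counts in serum and 461 counts in NPCs, and its lowest, median and highest values were 0.0791, 0.257 and 0.448 CPM in serum and 3.09, 6.18 and 7.56 CPM in NPCs. A floor for 2i was set at 3 counts over the group, 0.0435 CPM in WT, which covers counting error in 2i only. The pooled Fabp7 level was 5.83 times that floor in WT serum cells and 132 times in WT NPCs. Counting error in serum cells and NPCs is not in these ratios. The pooled WT serum level was 0.254 CPM (95% exact Poisson interval 0.150 to 0.401 CPM). The serum-against-2i call (edgeR adjusted p = 0.028) was lost without replicate 3 of the WT1 serum cells (edgeR adjusted p = 0.080).

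Counted together, 5 of the 8 genes were higher and 3 lower in WT serum cells than in WT 2i cells, where 29% of all genes tested were higher and 29.2% lower. In WT NPCs against WT serum cells 7 of 8 were higher and 0 lower, where 31.9% of all genes tested were higher and 34.1% lower; at an unadjusted p under 0.05 none was lower, and DESeq2 also called 7. The median log2 fold change of the 8 genes was 2.47, against -0.02 over all 15682 genes. Set per transcript length as the deposited TPM, the mean over the 24 NPC libraries of both series was highest for Sox1 at 44.2 TPM, followed by Sox3 at 40.0, Msi1 at 32.1, Fabp7 at 24.4, Sox11 at 20.4, Pax6 at 13.0, Sox21 at 10.5 and Nes at 9.49 TPM. This order was that of the pooled libraries and not of each genotype. Fabp7 had the highest mean in KD NPCs, at 32.3 ± 28.4 TPM beside 26.5 ± 15.7 TPM for Sox1 (SD, n = 6), and in Ctrl NPCs, and in pKO NPCs Sox3 averaged 46.1 ± 12.8 TPM and Sox1 41.4 ± 26.8 TPM (SD, n = 6). In the 15 libraries in 2i the highest mean was that of Msi1, at 38.6 TPM, above Sox21 at 9.54 and Sox3 at 7.87 TPM, and Msi1 led in each genotype there, while in WT Sox3 (9.57 TPM) averaged more than Sox21 (7.25 TPM). The plot of levels by line and state shows every library.

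**Figure D1:**
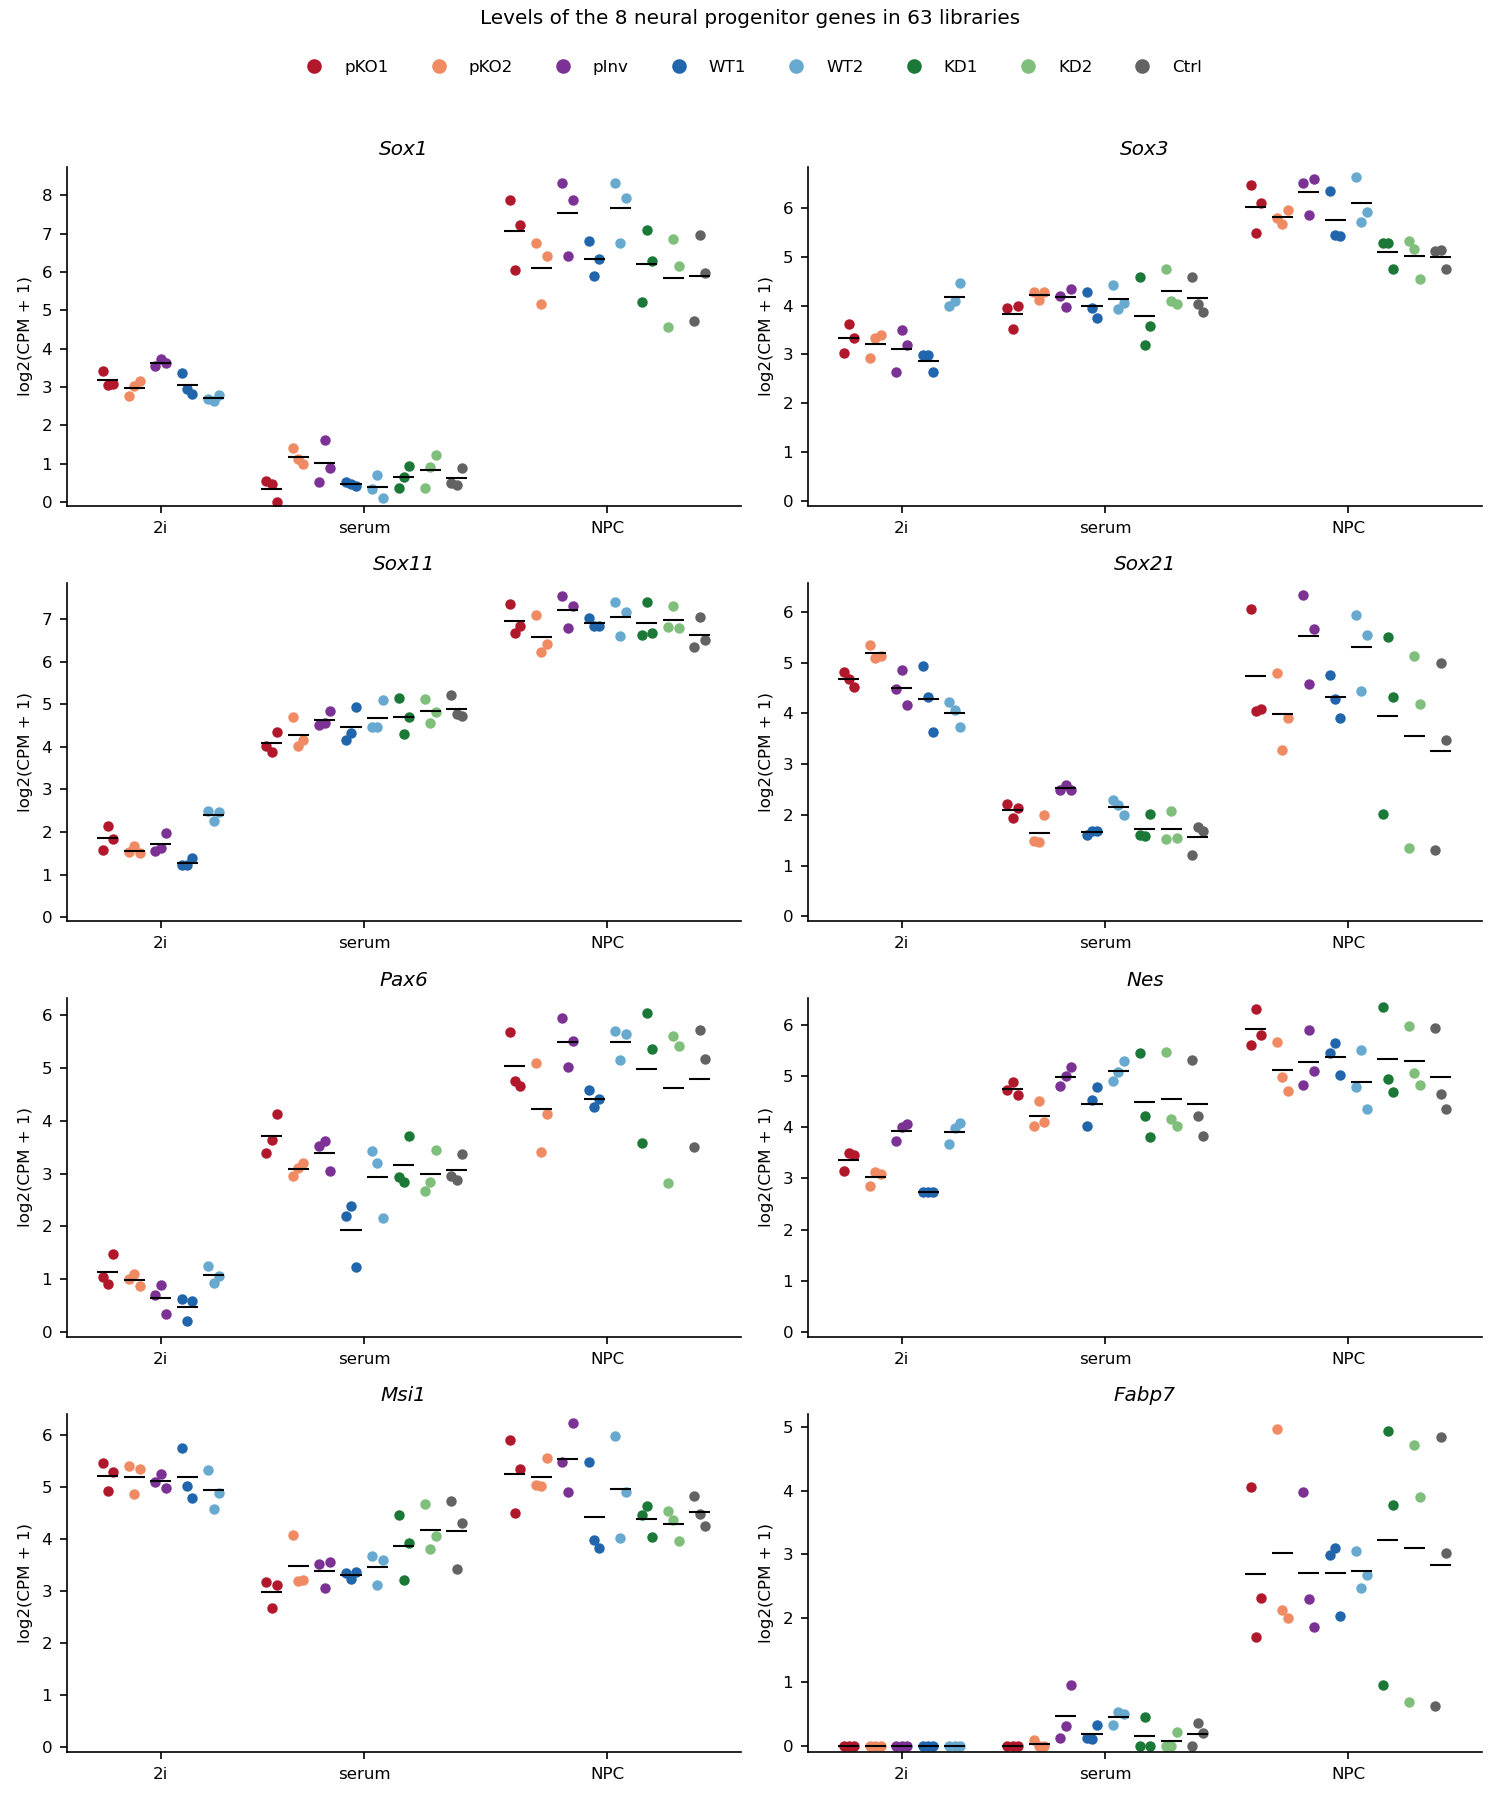
Level of each of the 8 genes as log2(CPM + 1) in every library, by culture state and line, with the 3 replicates of a line as points and their mean as a bar. In the genotype lines Sox1, Sox21 and Msi1 are lowest in serum, Sox11 and Pax6 climb at both steps, and Fabp7 is at 0 in all 15 libraries in 2i.

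The state change was accompanied by changes in markers of other cells. The summed level of 14 feeder fibroblast markers was 404 to 1663 CPM in 2i, 308 to 9672 CPM in serum and 62.8 to 841 CPM in NPCs, and that of 6 macrophage markers 30.0 to 176 CPM in 2i, 132 to 601 CPM in serum and 3.76 to 8.14 CPM in NPCs. None of these 20 genes was at 0 in every library of a state. The 12 pluripotency markers summed to 4963 to 6349 CPM in 2i, 2679 to 5461 CPM in serum and 644 to 2229 CPM in NPCs, so that markers of stem cells were still present at day 4, and all 12 had a mean of at least 1 CPM there. The part of these cells in the levels of Nes, Sox11 or the other 6 genes was not tested.

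The edited genotypes were compared in the same way. In pKO, 8 of 8 genes were higher in NPCs than in serum cells, where 29.8% of all genes tested were higher, and 4 were higher and 3 lower in serum than in 2i, where 30.1% and 28% were. In pInv, 7 of 8 were higher in NPCs, where 21.9% of all genes were, and 4 were higher and 3 lower in serum than in 2i, where 22.6% and 21.7% were. Sox1 was higher in NPCs than in serum by 7.22 ± 0.43 (log2) in pKO and 7.43 ± 0.58 in pInv, and Sox11 by 2.54 ± 0.18 in pKO and 2.54 ± 0.25 in pInv (edgeR adjusted p = 2.2e-16 in pKO and 1.1e-12 in pInv for Sox1, 1.5e-14 in pKO and 2.3e-10 in pInv for Sox11).

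Nes passed the threshold in pKO and not in pInv, a difference between the edits that was not itself tested. In pKO it had 25.1, 48.9 and 78.7 CPM (lowest, median and highest) in NPCs, against 15.4, 22.8 and 28.6 CPM in serum, a log2 fold change of 0.98 ± 0.19 (edgeR adjusted p = 2.4e-05). In pInv its 3 replicates had 27.5, 58.9 and 33.2 CPM in NPCs, against 27.0, 31.1 and 35.0 CPM in serum, and the change of 0.25 ± 0.26 was not called (edgeR adjusted p = 0.444). Fabp7 in pKO had 764 counts over 6 NPC libraries and 1 count over 6 serum libraries (0.0142 CPM, 95% exact Poisson interval 0.0004 to 0.0789 CPM). Its pooled level in pKO NPCs was 226 times the 3-count floor in 2i. Replicate 1 of the pKO2 NPCs held 427 of those 764 counts, and without it the ratio was 124. In pInv that ratio was 85.4, and 37.9 without replicate 1, which held 213 of the 296 NPC counts. The serum-against-2i difference in pInv was not called (edgeR adjusted p = 0.052), but it was without replicate 1 of the pInv serum cells (edgeR adjusted p = 0.039), with all libraries numbered 1 left out (edgeR adjusted p = 0.0054) and by DESeq2 (adjusted p = 0.011).

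Only for Pax6 did a test of the difference between genotypes pass, and that in one of 4 such contrasts. Pax6 in the replicates of pKO1 was 50.2, 26.0 and 24.4 CPM in NPCs, against 9.43, 11.4 and 16.5 CPM in serum, and in those of pKO2 33.4, 9.61 and 16.6 CPM in NPCs, against 6.76, 7.56 and 8.15 CPM in serum. In WT the highest serum library had 9.79 CPM and the lowest NPC library 18.1 CPM. Within each pKO line the states did not overlap, but over both lines they did. The NPC-against-serum change was 1.30 ± 0.26 (log2) in pKO and 2.60 ± 0.28 in WT, a difference of -1.30 ± 0.38 (edgeR adjusted p = 0.0415), where 2.08% of all genes tested had a lower change in pKO.

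The call held in 11 of 24 fits with 1 library left out, with adjusted p of 0.0078 to 0.098. It was lost without replicate 1 or 3 of WT1 serum, 3 of WT2 serum, 2 or 3 of pKO1 serum, 2 of pKO2 serum, 3 of WT1 NPC, 1 or 3 of WT2 NPC, 2 or 3 of pKO1 NPC, or 2 or 3 of pKO2 NPC, at -1.10 to -1.34. Without replicate 2 of the WT2 NPCs the Nes difference, 0.87, was also called (edgeR adjusted p = 0.045). With all libraries numbered 1 left out, the Pax6 difference was -2.02 (edgeR adjusted p = 0.0057) and the change within pKO was 0.71 (edgeR adjusted p = 0.052).

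The other 3 contrasts between genotypes called 0 of the 8 genes by edgeR, 0 by DESeq2 and 0 at an unadjusted p under 0.05: serum against 2i in pKO minus WT (1.13% of all genes called), NPC against serum in pInv minus WT (0.00638%) and serum against 2i in pInv minus WT (0.0191%). In the same order, 2122, 1017 and 383 of the 15682 genes tested passed that unadjusted p. The pKO and pInv comparisons share the WT libraries and are not independent of each other.

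**Figure D2:**
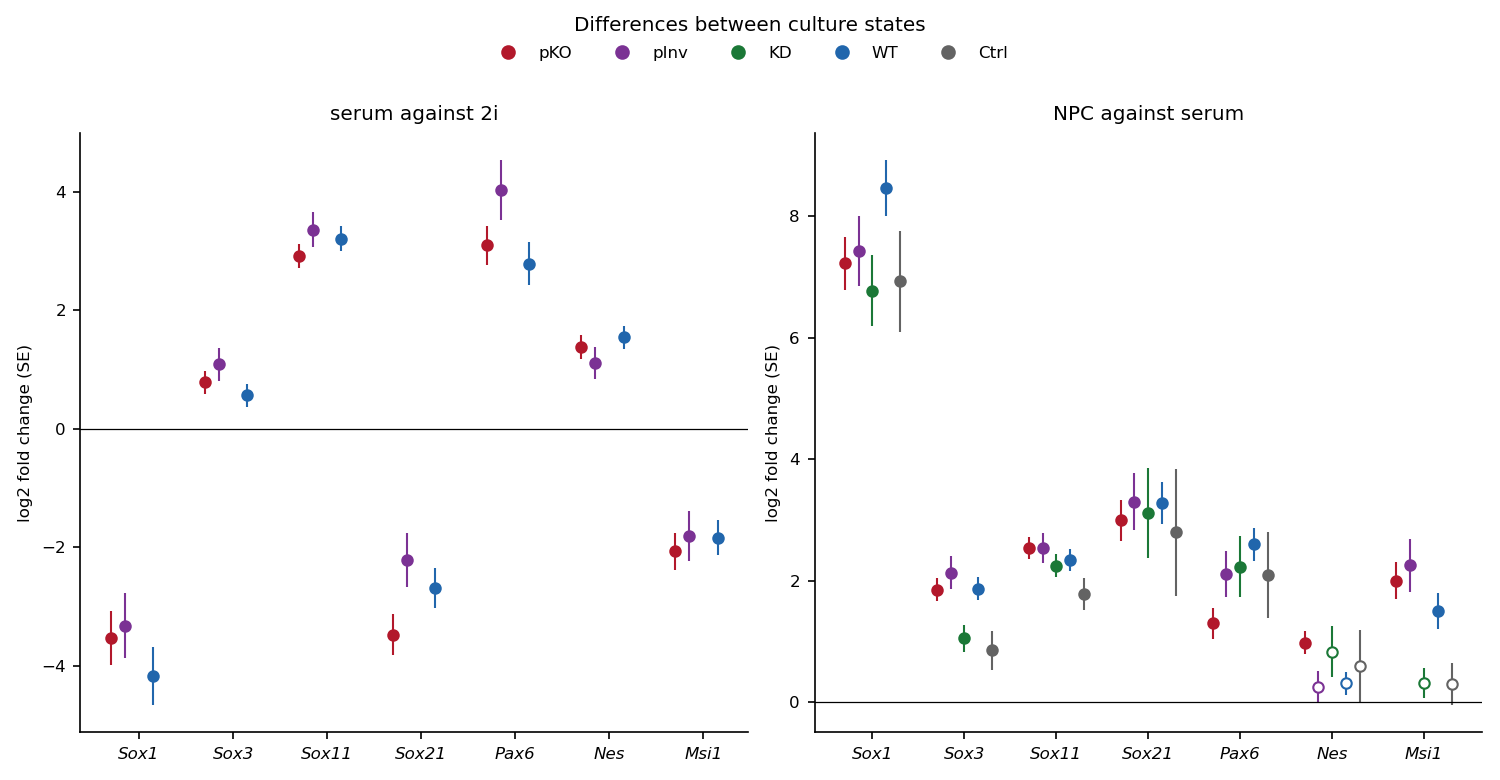
Log2 fold changes (points) ± SE (lines) between culture states within each genotype, from edgeR, for 7 of the genes, without Fabp7, with filled points past an adjusted p of 0.05. For NPCs against serum all points lie above 0, Nes lying lowest in pInv (0.25) and WT (0.31), and for serum against 2i Sox1, Sox21 and Msi1 lie below 0.

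In the perturbation series the NPC-against-serum changes were in the same direction. The SE was larger than in WT for Sox21, Pax6 and Nes in both KD and Ctrl, but smaller for Msi1 in KD. In the KD lines 6 of 8 genes were higher in NPCs, where 33.6% of 14374 genes tested were, and in Ctrl 6 of 8, where 27.3% were. Sox1 had 36.1, 136 and 77.9 CPM in KD1 NPCs and 22.8, 114 and 69.9 CPM in KD2 NPCs, and at most 1.35 CPM in KD serum cells, a log2 fold change of 6.77 ± 0.58 (edgeR adjusted p = 9.0e-08). In Ctrl it had 25.5, 124 and 62.2 CPM in NPCs, against 0.408, 0.371 and 0.867 CPM in serum, a change of 6.93 ± 0.84 (edgeR adjusted p = 1.1e-05). The states did not overlap in either genotype.

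Sox11 also separated the states in these lines, and Sox3 did so in Ctrl, while in KD its NPC libraries (22.5 to 38.9 CPM) overlapped its serum libraries (8.21 to 25.7 CPM). Sox11 had 79.8, 131 and 90.0 CPM in Ctrl NPCs, against 35.9, 26.1 and 25.2 CPM in Ctrl serum cells, a change of 1.79 ± 0.26, and in KD the change was 2.25 ± 0.19 (edgeR adjusted p = 5.4e-05 and 7.3e-08). Sox3 had 33.7, 34.1 and 25.9 CPM in Ctrl NPCs, against 22.9, 15.5 and 13.6 CPM in Ctrl serum cells, a change of 0.86 ± 0.32 (edgeR adjusted p = 0.031), and in KD 1.05 ± 0.22 (edgeR adjusted p = 5.9e-04). Fabp7 had 1122 counts over 6 KD NPC libraries and 6 counts over 6 KD serum libraries, and 415 counts over 3 Ctrl NPC libraries and 5 counts over 3 Ctrl serum libraries.

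Sox21 and Pax6 were not higher in every NPC library. Sox21 had 3.07, 44.4 and 18.9 CPM in KD1 NPCs, 1.54, 33.9 and 17.2 CPM in KD2 NPCs and 1.47, 30.7 and 10.2 CPM in Ctrl NPCs, against serum ranges of 1.89 to 3.24 CPM in KD and 1.33 to 2.41 CPM in Ctrl. Replicate 1 of each NPC group therefore lay inside or near the serum range. Pax6 had 10.9, 64.7 and 40.0 CPM in KD1 NPCs, 6.04, 47.6 and 42.0 CPM in KD2 NPCs and 10.4, 51.7 and 35.1 CPM in Ctrl NPCs, against serum ranges of 5.37 to 12.2 CPM in KD and 6.30 to 9.30 CPM in Ctrl. The changes of Sox21 were 3.12 ± 0.74 in KD and 2.80 ± 1.04 in Ctrl, and those of Pax6 2.23 ± 0.50 in KD and 2.10 ± 0.71 in Ctrl, all called (edgeR adjusted p = 0.0014, 0.032, 9.3e-04 and 0.020).

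Nes and Msi1 were not called in either genotype in this fit: Nes changed by 0.84 ± 0.42 in KD and 0.61 ± 0.59 in Ctrl, and Msi1 by 0.32 ± 0.25 in KD and 0.30 ± 0.35 in Ctrl (edgeR adjusted p of 0.088 to 0.48). The replicate numbers pair the libraries of this series, and with a block for the number in each state 8 of 8 genes were higher in both, where the same fit called 79.2% of all genes in either direction in KD and 70.7% in Ctrl, with Nes at 0.86 in KD and 0.57 in Ctrl and Msi1 at 0.37 in KD and 0.38 in Ctrl (edgeR adjusted p = 1.6e-07, 8.6e-04, 0.0034 and 0.027). Without replicate 1 of the KD1 or KD2 serum cells Nes in KD was called, at 1.15 and 1.13 (edgeR adjusted p = 0.028 and 0.030). In Ctrl, Sox3 lost its call without serum replicate 2 or 3 or NPC replicate 1 or 2 (0.73 to 0.83), Sox21 without any 1 serum replicate or NPC replicate 2 (1.56 to 2.96), and Pax6 without serum replicate 1 or 2 or NPC replicate 2 (1.63 to 2.03). The difference between the KD and Ctrl changes was called for 0 of the 8 genes and for 0% of all genes by edgeR, for 0 of the 8 at an unadjusted p under 0.05 and for 0 by DESeq2. Of the 14374 genes tested, 83 passed that unadjusted p.

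Between genotypes within a state, few of the 8 genes differed. In 2i, pKO differed from WT in 1 of the 7 genes tested, where 9.14% of 13931 genes were called in either direction. That gene was Sox21, higher in pKO, where 3.29% of all genes were. Its replicates had 27.1, 24.6 and 22.0 CPM in pKO1 and 39.9, 32.9 and 34.0 CPM in pKO2, against 29.5, 19.0 and 11.4 CPM in WT1 and 17.6, 15.7 and 12.3 CPM in WT2. The pKO2 libraries stood above all WT libraries, and the pKO1 libraries were below replicate 1 of WT1. The log2 fold change was 0.80 ± 0.20 (edgeR adjusted p = 0.020). It missed the threshold without replicate 3 of WT2, at 0.73 (edgeR adjusted p = 0.052), with WT1 alone as the control, at 0.60 (edgeR adjusted p = 0.18), and with pKO1 alone, at 0.53 (edgeR adjusted p = 0.32).

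The inverted line differed from WT in 2i in 2 of 7 genes, both higher, where 0.933% of all genes were called in either direction and 0.581% were higher. Sox1 had 10.8, 12.3 and 11.3 CPM in pInv, against 9.30, 6.74 and 6.06 CPM in WT1 and 5.45, 5.25 and 5.90 CPM in WT2. No pInv library overlapped a WT library, and the change was 0.86 ± 0.16 (edgeR adjusted p = 0.025). Nes had 12.4, 15.0 and 15.8 CPM in pInv, against 5.64, 5.65 and 5.64 CPM in WT1 and 11.8, 14.9 and 15.9 CPM in WT2. The pInv libraries lay within the WT2 range and above WT1, so the change of 0.70 ± 0.12 (edgeR adjusted p = 0.018) was 1.36 against WT1 alone and 0.03 against WT2 alone.

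The Sox1 call was lost without replicate 1 or 2 of WT2, 2 of WT1 or any 1 pInv replicate (0.81 to 0.88, edgeR adjusted p of 0.052 to 0.137), and with WT1 alone as the control (0.65, edgeR adjusted p = 0.061). The Nes call was lost without replicate 2 of WT1 or 2 or 3 of pInv (0.62 to 0.68, edgeR adjusted p of 0.052 to 0.152). It was also lost with WT2 alone as the control (edgeR adjusted p = 0.97), where Sox3 was called, at -1.11 (edgeR adjusted p = 0.014). The edits set against each other differed in 1 gene, where 3.52% of all genes were called in either direction and 2.58% were lower in pKO. That gene was Nes. With 7.83, 10.3 and 9.98 CPM in pKO1 and 6.22, 7.70 and 7.52 CPM in pKO2, it lay below pInv without overlap, by -0.78 ± 0.13 (log2; edgeR adjusted p = 0.0043). Sox1 was at -0.58 ± 0.16 in that contrast (edgeR adjusted p = 0.069, and 0.021 with the replicate block, the numbers pairing the 2i libraries), and without replicate 1 of pKO1 at -0.66 (edgeR adjusted p = 0.046).

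In serum, Pax6 was the 1 gene of 7 called between pKO and WT, where 5.97% of 14197 genes were called in either direction and 1.78% were higher. It had 9.43, 11.4 and 16.5 CPM in pKO1 and 6.76, 7.56 and 8.15 CPM in pKO2, against 3.59, 4.19 and 1.35 CPM in WT1 and 9.79, 8.23 and 3.47 CPM in WT2. The pKO2 values lay inside the WT2 range, and only pKO1 replicates 2 and 3 were above every WT library. The change was 1.08 ± 0.28 (edgeR adjusted p = 0.038), with 1.71 against WT1 alone and 0.44 against WT2 alone. It was lost without replicate 1 or 3 of WT1, 2 or 3 of WT2, 2 or 3 of pKO1 or 2 of pKO2 (0.91 to 1.16, edgeR adjusted p of 0.052 to 0.082), and with pKO2 alone (0.73, edgeR adjusted p = 0.27). It was also lost with WT2 alone as the control (0.44, edgeR adjusted p = 0.47), where Nes was called, at -0.62 (edgeR adjusted p = 0.039).

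In pInv serum cells 0 of 7 genes were called against WT by edgeR, where 0.0563% of all genes were, and 0 by DESeq2. At an unadjusted p under 0.05 there were 3, where 690 of 14197 genes tested passed. The 3 were Sox1, Sox21 and Pax6, all higher, by 1.66 ± 0.59, 0.80 ± 0.21 and 1.06 ± 0.33 (log2, edgeR adjusted p of 0.44 to 0.88). Sox21 in pInv, at 4.60, 5.03 and 4.63 CPM, lay above all WT libraries, the highest of which had 3.94 CPM. Between pKO and pInv in serum 0 of 7 were called by edgeR (0.176% of all genes) and 0 by DESeq2. There 2 of the 7 had an unadjusted p under 0.05, as had 1091 of 14197 genes tested. The summed feeder fibroblast markers of the genotype series ran from 1733 to 9672 CPM over these serum libraries, and their part in the serum comparisons was not tested.

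In NPCs no gene of the 8 was called between pKO and WT (8.07% of 14511 genes called), between pInv and WT (0.0138%) or between pKO and pInv (0.875%) by edgeR, and 0 by DESeq2. At an unadjusted p under 0.05 there were 0, 0 and 3, where 3444, 1015 and 1756 of the 14511 genes tested passed. Sox1 had 236, 65.7 and 149.9 CPM in pKO1, 107, 34.6 and 84.9 CPM in pKO2 and 318, 84.0 and 236 CPM in pInv, against 111, 58.2 and 79.3 CPM in WT1 and 319.5, 107 and 243 CPM in WT2. The genotypes overlapped, and the changes were -0.31 ± 0.36 for pKO and 0.68 ± 0.43 for pInv against WT (log2; edgeR adjusted p = 0.65 and 0.79). Pax6, at -0.19 ± 0.26 in pKO and 0.61 ± 0.31 in pInv, and Nes, at 0.44 ± 0.24 in pKO and 0.20 ± 0.29 in pInv, overlapped in the same way. The SE of pKO against WT was 0.36 for Sox1, 0.39 for Sox21 and 0.58 for Fabp7 on the log2 scale, so small differences in these genes were not detectable here. With all libraries numbered 1 left out, Msi1 was called in pKO against WT, at 1.00, and in pInv against WT, at 1.58 (edgeR adjusted p = 0.038 for both).

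**Figure D3:**
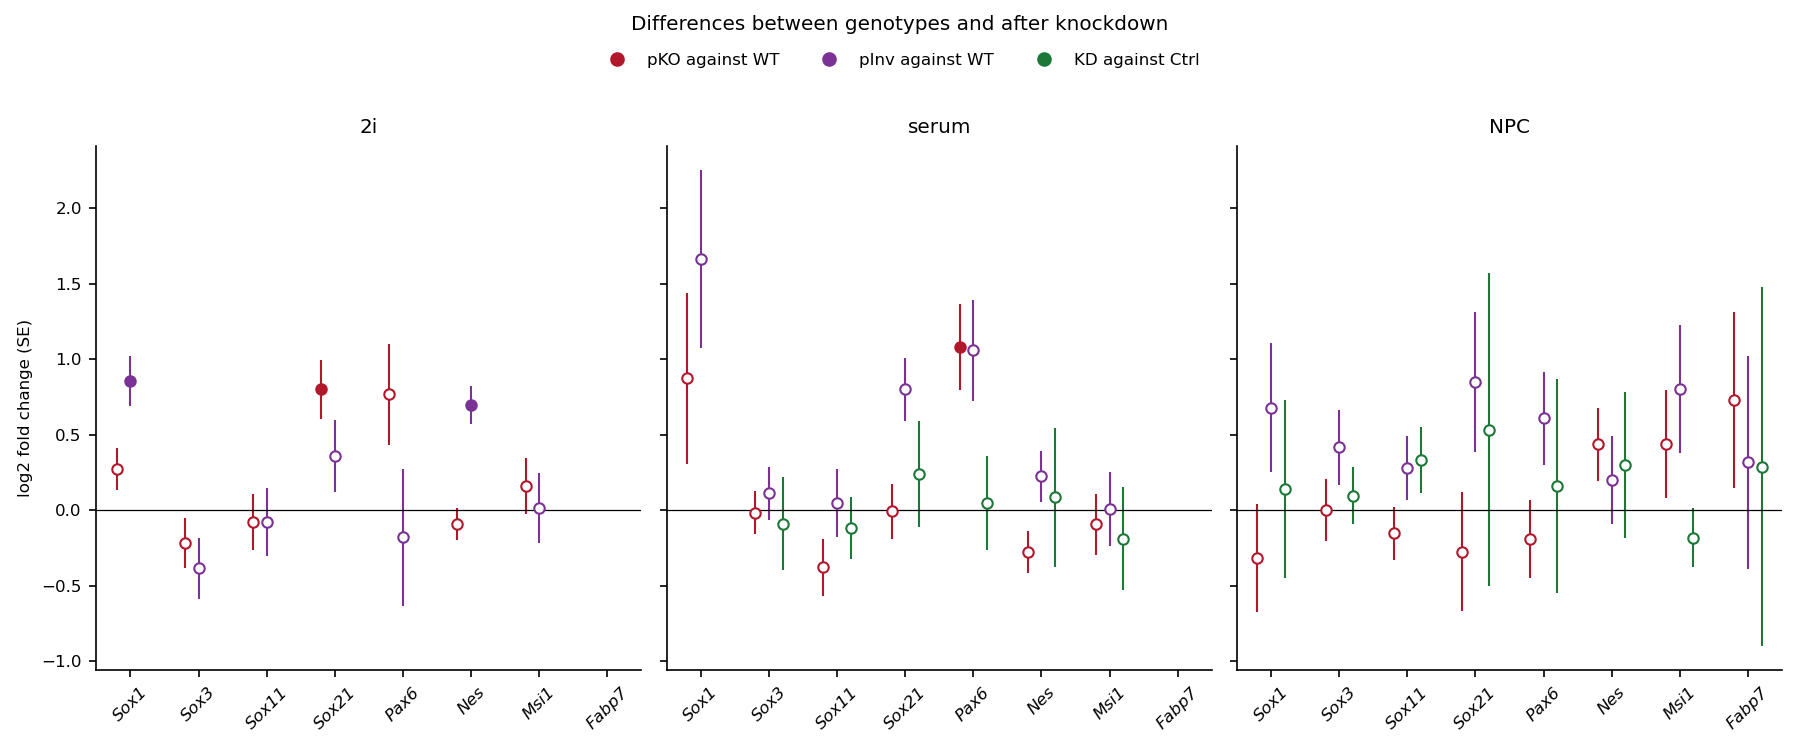
Log2 fold changes (points) ± SE (lines) of the 8 genes in pKO and pInv against WT and in KD against Ctrl, by culture state, from edgeR, with filled points past an adjusted p of 0.05; genes not tested have no point. The filled points are Sox21 in pKO in 2i (0.80), Sox1 and Nes in pInv in 2i (0.86 and 0.70) and Pax6 in pKO in serum (1.08).

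The wild-type lines also differed from each other in 2i. WT1 had lower levels than WT2 of 3 of 7 genes, where 9.78% of all genes were lower. Sox3 had 6.98, 6.90 and 5.22 CPM in WT1, against 15.0, 16.2 and 20.9 CPM in WT2. Sox11 had 1.34, 1.33 and 1.60 CPM in WT1, against 4.58, 3.77 and 4.50 CPM in WT2. Neither these nor Nes overlapped between the lines, and the log2 differences were -1.45 ± 0.23 for Sox3, -1.58 ± 0.26 for Sox11 and -1.34 ± 0.15 for Nes (edgeR adjusted p = 7.3e-04, 8.1e-04 and 6.2e-05), called in all 6 fits with 1 library left out. Pax6, at -1.46 ± 0.50, was called only with the replicate block (edgeR adjusted p = 0.057, and 0.035 with the block).

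The other comparisons between lines called 0 of the genes by edgeR and by DESeq2. Of all genes tested, edgeR called 0.528% for WT1 against WT2 in serum and 0.103% in NPCs. For pKO1 against pKO2 it called 0.459% in 2i, 0.197% in serum and 2.93% in NPCs. At an unadjusted p under 0.05, WT1 against WT2 had 3 of 7 in serum, where 1284 of 14197 genes tested passed. In NPCs it had 2 of 8 (1212 of 14511). At that threshold pKO1 against pKO2 had 1 of 7 in 2i (1687 of 13931), 4 of 7 in serum (2174 of 14197) and 1 of 8 in NPCs (2124 of 14511). Sox1 in NPCs was lower in WT1 than in WT2 by 1.41 ± 0.51 and higher in pKO1 than in pKO2 by 0.95 ± 0.51 (log2; edgeR adjusted p = 0.41 and 0.42), without a call in this fit. With a replicate block Sox1 was called in both, at -1.29 and 0.94 (edgeR adjusted p = 0.011 and 0.012). That block called 0.345% and 3.86% of all genes, and replicate numbers were not taken to pair the genotype NPC libraries.

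No difference was called between KD and Ctrl in this fit, and the change of Platr11 itself was not called either, at -3.39 ± 0.45 in serum and -2.85 ± 0.34 in NPCs (log2; edgeR adjusted p = 0.18 and 0.14, unadjusted p = 1.3e-05 and 1.0e-05), so the counts of 0 do not show that the genes were unaffected. In serum 0 of the 6 genes tested and in NPCs 0 of 8 differed between KD and Ctrl by edgeR, where 0% of 13644 and 0% of 13466 genes were called. DESeq2 called 0, and the fit with the replicate block 0, where it called 0.00733% and 0.0149% of all genes. Of the 8 genes 0 passed an unadjusted p of 0.05, where 138 of 13644 and 181 of 13466 genes tested passed. Sox1 and Fabp7 were too low in serum to be tested. Between KD1 and KD2 the same 4 counts were 0 in both states, with 0% of all genes called by edgeR without the block. With the block, edgeR called 11.5% of 13644 genes in serum and 0.0446% of 13466 in NPCs. Without it, 1869 and 39 of these genes passed an unadjusted p of 0.05. Sox11 in NPCs had 97.4, 168 and 102 CPM in KD1 and 111, 158 and 109.6 CPM in KD2, against 79.8, 131 and 90.0 CPM in Ctrl, with overlap between the genotypes and a log2 fold change of 0.33 ± 0.22 (edgeR adjusted p = 0.999).

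Taken within a replicate number, the 6 ratios of KD over Ctrl in NPCs ran from 1.13 to 1.39 for Sox11, with a median of 1.22, and from 1.02 to 1.41 for Nes, with a median of 1.30. Each of the 6 was above 1 for these genes and for Sox21, which ran from 1.04 to 2.08. The KD1 and KD2 ratios of a number share the same Ctrl library, so the 6 are not independent. The share of all genes with all 6 ratios above 1 was not counted. The ratios of Sox1 ran from 0.894 to 1.41, those of Sox3 from 0.866 to 1.16, those of Pax6 from 0.582 to 1.25, those of Msi1 from 0.764 to 1.12 and those of Fabp7 from 0.909 to 1.95, on both sides of 1. Eomes, the gene named in the title of the series, averaged 10.5 ± 14.6 CPM in KD NPCs (SD, n = 6) and 5.72 ± 3.76 CPM in Ctrl NPCs (SD, n = 3). Its libraries ran from 3.07 to 40.3 CPM in KD and from 3.40 to 10.1 CPM in Ctrl, so the ranges overlapped.

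Replicates of one NPC line differed from each other more than the lines did in the perturbation series, and in a shared order. Sox1, Sox21, Pax6 and Fabp7 were lowest in replicate 1 and highest in replicate 2 in 3 of 3 lines. Fabp7 had 0.944, 29.6 and 12.7 CPM in the replicates of KD1, 0.615, 25.2 and 13.9 CPM in those of KD2 and 0.536, 27.7 and 7.15 CPM in those of Ctrl. The mean of the highest replicate number was 39.4 times that of the lowest for Fabp7, 17.9 times for Sox21, 5.99 times for Pax6 and 4.43 times for Sox1, whereas the highest line mean was 1.22, 1.57, 1.21 and 1.21 times the lowest in the same order.

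Nes ran the other way. It had 80.5, 29.6 and 24.9 CPM in the replicates of KD1 NPCs, 62.1, 32.3 and 27.4 CPM in those of KD2 and 60.9, 24.3 and 19.4 CPM in those of Ctrl, highest in replicate 1 in 3 of 3 lines. The serum cells of these lines showed it too, with 38.8 to 43.6 CPM in replicate 1 and 13.1 to 17.7 CPM in replicates 2 and 3.

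Other markers moved with the number in the perturbation NPCs. The 14 feeder fibroblast markers summed to 217 to 342 CPM in replicate 1, 88.9 to 114 CPM in replicate 2 and 62.8 to 103 CPM in replicate 3. The 8 surface ectoderm markers summed to 139.5 to 197 CPM in replicate 1, against 80.8 to 100.2 CPM in replicates 2 and 3, and the 12 mesendoderm markers to 29.6 to 214 CPM in replicate 1, against 16.0 to 24.4 CPM in the others. The 28 other neural progenitor genes summed to 558 to 643 CPM in replicate 1, 964 to 1068 CPM in replicate 2 and 666 to 701 CPM in replicate 3. The part of these cells in the order of the replicates was not tested.

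In the genotype series the order was another. Sox1, Sox11, Sox21 and Pax6 were highest in replicate 1 of 5 of 5 NPC lines, and Sox1 and Sox11 were lowest in replicate 2 of 5 of 5. Fabp7 was highest in replicate 1 in 4 of 5 lines, with 15.7, 2.27 and 3.97 CPM in pKO1 and 30.1, 3.36 and 3.01 CPM in pKO2, while Nes was highest in replicate 2 in 4 of 5. The highest number's mean was 3.12 times the lowest for Sox1 and 2.99 times for Sox21, close to the 2.96 and 3.07 times between the highest and lowest line means. The 28 other neural progenitor genes summed to 1211 to 1437 CPM in replicate 1 of these NPCs, against 837 to 1102 CPM in replicates 2 and 3.

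**Figure D4:**
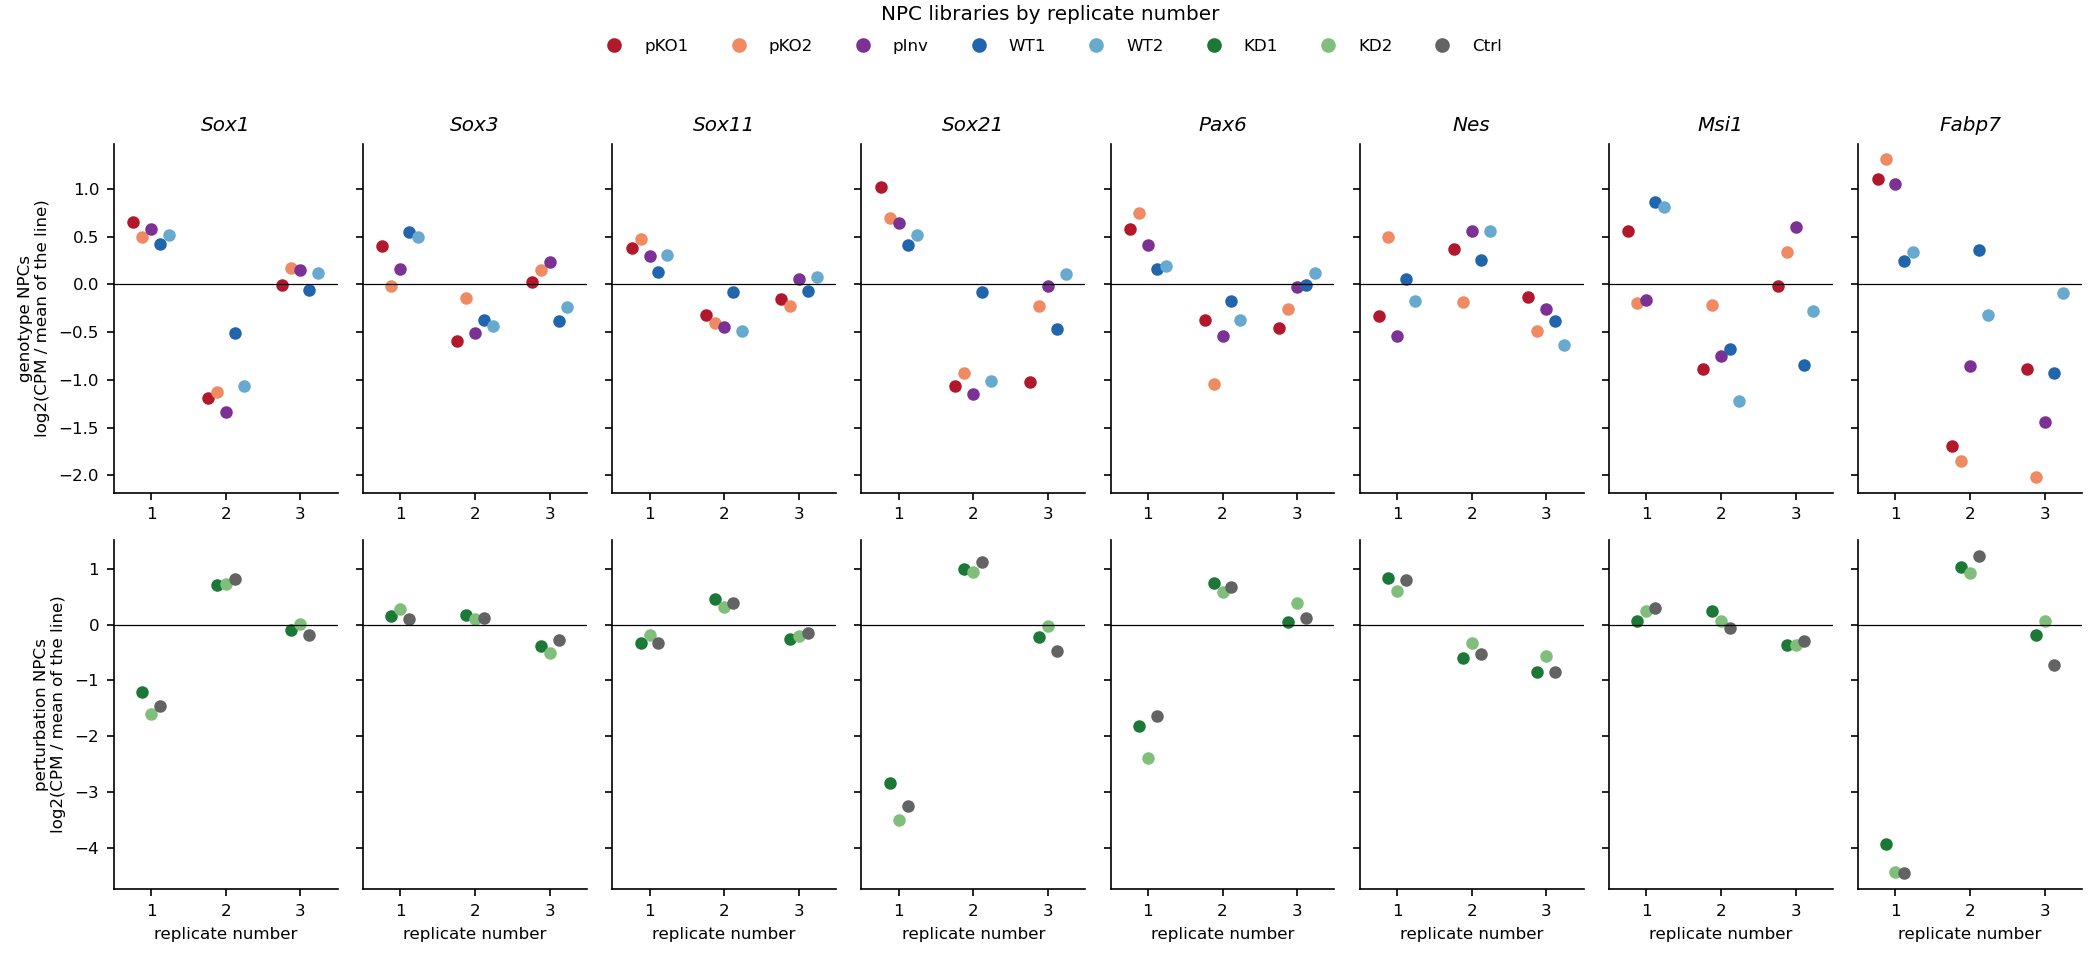
Log2 of CPM over the mean of the line for the 8 genes in NPC libraries, by replicate number, 1 point a library, with the genotype series above the perturbation series. Sox1, Sox21, Pax6 and Fabp7 are lowest in replicate 1 of all 3 perturbation lines, whereas Sox1, Sox11, Sox21 and Pax6 are highest in replicate 1 of all 5 genotype lines.

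Among 28 other neural progenitor genes, of which 26 were tested, 18 were higher and 3 lower in WT NPCs than in WT serum cells, with a median log2 fold change of 2.01. Zbtb16, a zinc-finger factor, was higher by 6.22 ± 0.47, Prom1, which encodes the surface protein CD133, by 1.98 ± 0.16, and the zinc-finger gene Zfp521 by 1.86 ± 0.20, while Vim, encoding vimentin, was lower by 2.59 ± 0.23. Of 10 relatives of the 8 genes tested, 3 were higher and 4 lower, with a median of -0.24: the musashi gene Msi2 was higher by 0.87, and Vim, the neuronal filament gene Ina and the SoxB1 gene Sox2 were lower by 2.59, 1.59 and 0.97. Sox2, which stem cells and progenitors both express, thus moved opposite to Sox1 and Sox3. These lists, like the 8 genes, were drawn up with earlier results of these data known.

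Of 16 neuronal genes 11 were higher and 2 lower (median 1.98), led by Onecut2 at 4.66, Rbfox3 at 3.87 and Mapt at 2.23, with Nefl lower by 1.58. Of 5 glial genes 3 were higher and 0 lower (median 1.82), among them Mbp at 3.05 and Sox10 at 1.82. Pluripotency genes were lower in 11 of 12 (median -3.30), among them Tdgf1 at -3.60, Zfp42 at -3.65, Klf4 at -5.20 and Tbx3 at -4.93. Mesendoderm genes were lower in 12 of 12 (median -4.97), such as Eomes at -4.35 and Mixl1 at -6.05. Surface ectoderm genes were lower in 5 of 6 (median -1.94), with Grhl3 at -3.23 and Tfap2c at -3.08, feeder fibroblast genes in 13 of 14 (median -3.38), with Col1a1 at -5.50 and Prrx1 at -5.96, and macrophage genes in 6 of 6 (median -8.77), with Lyz2 at -12.48. All these are log2 differences of NPC minus serum, beside a median of -0.02 over all genes.

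In pKO against WT NPCs, where none of the 8 genes was called and 3.46% of all genes were higher and 4.61% lower, 0 of 26 other neural progenitor genes were called by edgeR. Mesendoderm genes were higher in 11 of 12, with a median log2 fold change of 3.14: Eomes by 2.81 ± 0.32, Wnt3, a secreted signal of gastrulation, by 2.45 ± 0.33, the endoderm factor Gata4 by 2.25 ± 0.33 and the growth factor gene Fgf8 by 3.82 ± 0.57 (edgeR adjusted p of 2.1e-04 to 0.0014). Eomes averaged 17.5 ± 8.09 CPM in pKO NPCs and 2.78 ± 1.52 CPM in WT NPCs (SD, n = 6 each). Pluripotency genes were higher in 3 and lower in 1 of 12, Tdgf1 by 1.29 ± 0.16 and Pou5f1 by 0.63 ± 0.16 being higher. In pKO serum cells the direction of the mesendoderm list was the other one, with 7 of 12 lower than in WT and none higher, where 4.19% of all genes were lower and 1.78% higher.

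Ordered over the 21 groups, the means of most genes formed a gradient in which neighbours overlapped. Of the 20 pairs of neighbouring groups, 17 overlapped in their libraries for Sox1, 18 for Sox3, 16 for Sox11, 19 for Sox21, 19 for Pax6, 17 for Nes, 19 for Msi1 and 19 for Fabp7. Sox1 was highest in WT2 NPCs, at 223 ± 108 CPM, and in pInv NPCs, at 213 ± 119 CPM (SD, n = 3 each), and its 8 NPC groups were cut off from all others. Sox11 also separated its 8 NPC groups, which ended with pKO2 NPCs at 98.0 ± 33.4 CPM, from the 8 serum groups. The NPC groups of Sox3 divided by series: the lowest genotype line, pKO2, had 55.2 ± 5.59 CPM and the perturbation lines lay below without overlap. For Sox21 and Msi1 the NPC and 2i groups were interleaved, with pKO2 in 2i at rank 3 for Sox21, at 35.6 ± 3.77 CPM, and WT1 in 2i at rank 3 for Msi1, at 37.0 ± 14.1 CPM.

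The 8 genes formed groups by their pattern over the 21 group means of log2(CPM + 1). Pearson's r was 0.966 between Sox11 and Pax6, 0.912 between Sox11 and Nes, 0.912 between Sox3 and Sox11, 0.881 between Sox1 and Fabp7 and 0.865 between Sox21 and Msi1. It was 0.028 between Sox11 and Sox21, -0.058 between Sox11 and Msi1 and -0.204 between Nes and Msi1. These r describe points that share libraries and depth, and carry no p.

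Among 13509 genes with a mean of at least 1 CPM, the most alike in this measure were Dcx (0.997), Zfp426 (0.982) and Klhdc2 (0.980) for Fabp7, and Car14 (0.992), Lpar4 (0.990) and Mapk12 (0.987) for Sox11. For Sox1 they were Epb41 (0.974), Hmgcs1 (0.973) and E130307A14Rik (0.972), for Sox3 Gria4 (0.977), Sall2 (0.971) and Lrp2 (0.969), and for Pax6 Lpar4 (0.971), Rian (0.971) and Cdh10 (0.968). For Sox21 they were Galnt16 (0.971), Mir9-3hg (0.952) and Phactr2 (0.948), for Nes Ercc6 (0.953), Gal3st4 (0.952) and Ddx25 (0.949), and for Msi1 Tm7sf2 (0.942), Kif5a (0.938) and Dclre1b (0.937). Lpar4 was thus named for both Sox11 and Pax6.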

How the data were processed

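The 8 genes and the 9 gene lists were chosen with earlier results of these data known. The authors deposited a table for each library with expected counts and TPM per gene, made with RSEM against mm9 per the submitters' processing notes. Which RSEM version, aligner, strand setting or read filter was used is not given in the sources used here. Per the labels' protocols, RNA was taken up in Trizol and the Lexogen SENSE mRNA-Seq kit served for library preparation.

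Of 24990 rows, 23822 were named by gene id, 1155 by transcript, 13 had no name and 375 merged several genes. Rows without a name stayed in library sizes and tests, and the largest held 0.668% to 6.041% of a library. They were left out of the search for the genes most alike each of the 8. Between 4.65% and 7.86% of the deposited expected counts were not whole, 1 of 504 for the 8 genes, and all were rounded to whole numbers. CPM used the library total. Under TMM library sizes 167 of 168 group means moved by less than their SD. Deposited TPM was used to compare genes.

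Tests were edgeR 4.0.16 quasi-likelihood F tests (R 4.3.3) with TMM scaling, filterByExpr and Benjamini-Hochberg adjustment at 0.05 over all genes tested, 1 mean per line, lines of a genotype averaged. Comparisons within a state used its 15 genotype or 9 perturbation libraries, and comparisons between states all 45 or 18. The SE is the size of the log2 fold change over the square root of its F value. Alternatives were DESeq2 1.42.0, RLE scaling, no filter, each line alone, lines as replicates, a replicate block, only the 18 WT libraries for the state comparisons and leaving out each library. With the data already seen, fits that held NPC libraries, the joint fit of all states included, were repeated without any library numbered 1, and pooled Fabp7 levels were recomputed with each library dropped in turn. The fits were tested on simulated data with known changes. Python 3.11.15, numpy 2.4.6, pandas 2.3.3, scipy 1.17.1 and matplotlib 3.10.9 were used for the rest.

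Replicate numbers were taken to pair libraries where residuals of every same-numbered pair correlated over 0.1. This was so in 2i (30 of 30 pairs, lowest 0.246), in perturbation serum cells (lowest 0.304), NPCs (0.249) and both together (0.223). It was not so in genotype serum cells (29 of 30, lowest 0.097), NPCs (17 of 30, lowest -0.346) or all genotype libraries (72 of 90).

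Named were the 8 genes, Platr11 and Eomes, up to 4 genes of a list past 0.05 by smallest p, and the 3 genes most alike each of the 8. Exon overlaps come from GENCODE and promoters from RefSeq; no genome of the counting build was used.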

Additional observations from a re-analysis of the deposited data

Results flagged for a closer look

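In 64 sets of 6 values, 1 for each gene in each genotype and state with 6 libraries, 5 values stood farther from the rest than Dixon's 95% limit. Chance flags about 1 in 20 independent sets. Here sets of different genes share libraries, and those of Fabp7 in 2i, all at 0, could not be flagged, so that rate is only a rough guide. Sox1 in replicate 1 of WT1 in 2i had 9.303 CPM, against 5.249 to 6.744 CPM in the other WT libraries. Sox21 in replicate 1 of the pKO1 NPCs had 65.742 CPM, against 8.652 to 26.812 CPM in the other pKO NPC libraries. Pax6 in replicate 3 of pKO1 in 2i had 1.774 CPM, from 24 counts, against 0.826 to 1.125 CPM. Msi1 in replicate 1 of the pKO2 serum cells had 15.923 CPM, against 5.363 to 8.242 CPM. Fabp7 in replicate 1 of the pKO2 serum cells had 0.067 CPM, which is 1 count, with the other 5 pKO serum libraries at 0. The change of Pax6 between NPCs and serum differed between pKO and WT by -1.299 on the log2 scale, past the threshold of the test of that difference (edgeR adjusted p = 0.0415).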

How the results depend on the processing

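Numbers are of the 8 genes called. Calls in 2i and serum depended on which lines stood for a genotype. In 2i, pKO against WT (1 called) had 4 with WT2 alone as control and 0 with pKO1 alone. There pInv against WT (2) had 1 with WT1 alone as control, and with WT2 alone it lost Nes and gained Sox3. In 2i, pKO against pInv (1) had 0 with pKO1 alone and 2 with DESeq2. In serum, pKO against WT (1) lost Pax6 and gained Nes with WT2 alone as control, and it had 0 with pKO2 alone. With the lines as replicates these 4 had 0. The sign of Nes in pKO against WT in 2i turned, at 0.58 with WT1 alone as control (edgeR adjusted p = 0.031) against -0.76 with WT2 alone. The replicate block is given with its share of all genes called in either direction. In 2i, where numbers pair the libraries, pKO against pInv had 2 with the block (9.34%) and WT1 against WT2 had 4 (29.7%, main fit 3). Where numbers do not pair them, the block gave 1 for WT1 against WT2 in serum (Nes, 2.47%) and in NPCs (Sox1, 0.345%). In NPCs it gave 1 for pKO1 against pKO2 (Sox1, 3.86%) and 2 for pKO against pInv (1.76%). Those 2 were Sox1, at -0.96, and Sox21, at -1.18 (edgeR adjusted p = 0.0088 and 0.041). For NPC against serum in pKO minus WT it gave 2 (10.2%). For serum against 2i in pInv it gave 8 (50.1%, main fit 7, and 8 with DESeq2). As given above, it gave 8 for NPC against serum in KD and in Ctrl, and it changed no other count. For the other alternatives the share over all genes is not given. With all libraries numbered 1 left out, pKO against WT and pInv against WT in NPCs had 1 each, and NPC against serum in pKO minus WT had 3. With 1 library left out, counts ran from 0 to 1 for pKO against WT in 2i and in serum, 0 to 2 for pInv against WT in 2i, 1 to 2 for pKO against pInv in 2i, 0 to 2 for NPC against serum in pKO minus WT and 3 to 6 in Ctrl. The causes were not tested. RLE scaling and dropping the filter changed no call. Depth limits Fabp7 and serum Sox1, with few or no counts.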

Other observations

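Other neural progenitor genes already differed between the stem cell media. In WT serum cells against WT 2i cells 12 of 26 such genes tested were higher and 5 lower, with a median log2 fold change of 1.38, against 0.01 over all 15682 genes. Of all genes tested, 29% were called higher and 29.2% lower. The examples named here were chosen after their values were seen, as the 4 higher and the 2 lower genes with the smallest p. On the log2 scale Cdh2, which encodes N-cadherin, was higher by 2.82 ± 0.23 (SE), the glutamate transporter gene Slc1a3 by 2.70 ± 0.28, the homeobox gene Otx2 by 2.40 ± 0.26 and Prom1 by 2.02 ± 0.17, whereas the homeobox gene Meis2 changed by -3.56 ± 0.39 and the receptor gene Notch1 by -1.29 ± 0.17 (edgeR, each past an adjusted p of 0.05). Of the mesendoderm genes 10 of 12 were higher and 1 lower at this step, with a median of 5.40, of the feeder fibroblast genes 7 of 14 higher and 0 lower, and of the macrophage genes 5 of 6 higher and 0 lower, and the part of those cells in the progenitor genes was not tested. Glial genes were higher in 0 and lower in 3 of 5, and neuronal genes higher in 2 and lower in 4 of 16.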
